A study of Mus musculus with 9 samples.

Results

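The genes described here are 10 that are read together when cells move between an epithelial and a mesenchymal state: the classical cadherins Cdh1, Cdh2 and Cdh3, the epithelial surface protein Epcam, the mesenchymal products Vim and Fn1, and the transcription factors Snai1, Snai2, Zeb1 and Zeb2. They were taken by symbol from a table of 38293 genes, in which each had a row. The cells were E14, an embryonic stem cell line of mouse strain 129/Ola, and their poly-A RNA was sequenced in 3 culture states with 3 libraries each, 9 libraries in all. The mESC-2i libraries came from naïve cells in N2B27 medium with 1 µM of the MEK inhibitor PD0325901, 3 µM of the GSK3 inhibitor CHIR99021 and 10 ng/mL leukaemia inhibitory factor (LIF). The mESC-ser libraries came from cells on gelatin in DMEM with 15% foetal bovine serum and 10 ng/mL LIF. The EpiLC (epiblast-like cell) libraries came from naïve cells replated on human plasma fibronectin in N2B27 with 20 ng/mL activin A, 12 ng/mL bFGF and 1% KSR, with no inhibitor and no LIF listed. All groups stem from the same cell line, and the labels number the libraries as biological replicates without saying what separated them, so the p-values below measure the spread between these libraries.

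E-cadherin, the product of Cdh1, holds epithelial cells and pluripotent cells together through adherens junctions, where its tail binds catenins. In an epithelial-mesenchymal transition (EMT) the repressors SNAI1, SNAI2, ZEB1 and ZEB2 bind E-boxes in epithelial promoters, Cdh1 and Epcam are turned down, and N-cadherin (Cdh2), vimentin (Vim) and fibronectin (Fn1) are turned up. The exchange of E-cadherin for N-cadherin is known as the cadherin switch, and it takes place in the embryo when epiblast cells leave through the primitive streak.

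The E-box that the SNAI and ZEB factors are known to bind was looked for as CAGGTG on either strand, which reads CACCTG when it lies on the opposite strand. RefSeq promoter windows of GRCm38.p6, from 250 bases before to 50 bases after a start, were at hand for 4 of the 10 genes, namely Epcam, Vim, Snai1 and Zeb2. The window of Epcam held 2 matches, beginning 187 and 19 bases before the start, and the window of Snai1 held 1, beginning 126 bases before it. Vim and the 4 windows of Zeb2 held 0. Of 32851 windows of all genes, 20.2% held at least 1 match and 2.88% at least 2. The 250 bases before the start are shown for an epithelial gene, a mesenchymal gene and a repressor that is itself part of the set, with the matches in capitals. They lie on the forward strand at chr17:87635729-87635978, chr2:13574061-13574310 and chr2:167537945-167538194. The Vim bases precede its RefSeq start but lie inside the gene as placed by GENCODE M21, which begins at 13573927.
Epcam: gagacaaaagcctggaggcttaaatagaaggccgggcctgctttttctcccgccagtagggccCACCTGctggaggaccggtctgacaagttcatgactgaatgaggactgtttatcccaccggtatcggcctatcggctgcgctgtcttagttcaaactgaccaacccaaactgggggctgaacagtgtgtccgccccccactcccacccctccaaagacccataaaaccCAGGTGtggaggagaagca
Vim: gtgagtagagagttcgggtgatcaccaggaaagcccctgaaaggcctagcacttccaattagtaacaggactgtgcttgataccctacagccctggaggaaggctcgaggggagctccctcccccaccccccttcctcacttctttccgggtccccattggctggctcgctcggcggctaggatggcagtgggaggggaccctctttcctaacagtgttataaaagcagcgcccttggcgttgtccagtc
Snai1: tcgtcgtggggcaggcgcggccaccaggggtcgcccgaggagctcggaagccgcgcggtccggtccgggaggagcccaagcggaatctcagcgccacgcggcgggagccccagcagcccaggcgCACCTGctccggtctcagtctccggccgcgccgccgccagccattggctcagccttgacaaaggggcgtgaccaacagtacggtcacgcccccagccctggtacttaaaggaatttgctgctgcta
These matches are letters in a window, and binding was not measured here.

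The libraries held between 7187576 and 16829549 counts. Levels are given as CPM, counts divided by the library total with TMM factors over the 9 libraries, and as RPKM, the same value per kilobase of exons, wherever genes are compared with each other. A gene was called when its Benjamini-Hochberg adjusted p from edgeR's quasi-likelihood test was under 0.05 and its absolute log2 fold change was over 0.5. Marker genes followed the labels in their sums, though not each by itself. Zfp42, a naïve gene, averaged 293 CPM in mESC-2i and 353 in mESC-ser, which was not called. Zic2, a formative gene, was not called in mESC-ser or EpiLC against mESC-2i. The summed level of 6 naïve pluripotency genes averaged 2459 CPM in mESC-2i, 1381 in mESC-ser and 33.8 for EpiLC, and that of 6 EpiLC and formative genes averaged 140, 760 and 1819. Pairs of libraries of a group differed by more than sampling noise, with chi-square values of 1.66 to 30.5 per degree of freedom, and the 2 largest, 13.6 and 30.5, both involved mESC-2i replicate 3. Fold changes also followed gene length. Across genes, which are not independent replicates, Spearman's correlation between exonic length and log2 fold change was 0.28 for mESC-ser against mESC-2i, -0.3 for EpiLC against mESC-2i and -0.498 for EpiLC against mESC-ser. Since Zeb2, Fn1 and Zeb1 have 19942, 11685 and 10266 exonic bases, a second fit with offsets for length and GC content is given for each of the 10 genes wherever it changed a call. The second fit is also given for Cdh1, Cdh2, Fn1, Snai1, Zeb1 and Zeb2 in EpiLC. In bulk RNA, fewer cells that express a gene and less of its RNA per cell cannot be told apart.

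The set did not show a cadherin switch in any of the 3 comparisons: Cdh2 was lower in EpiLC, not higher, and Cdh1 did not reach the fold threshold. In mESC-ser against mESC-2i, Cdh3, Epcam and Zeb2 were higher and Vim and Fn1 lower, which makes 5 of 10 genes called. Over all 15728 genes tested there, 56.2% were called, 25.9% higher and 30.3% lower. In EpiLC against mESC-2i, Cdh3 and Epcam were higher and Cdh2, Vim, Snai1, Zeb1, Zeb2 and Fn1 lower. These were 8 of the 9 genes tested, Snai2 having too few counts, against 69.8% of all 15378 genes, 32.0% of them higher and 37.8% lower. In EpiLC against mESC-ser, Epcam was higher and 7 genes were lower, again 8 of 9 tested, against 73.3% of all 15345 genes, 35.5% higher and 37.8% lower. The groups did not overlap for 5 of 10, 9 of 9 and 9 of 9 genes tested, while 70.7%, 81.8% and 85.7% of all genes tested did not overlap. The median log2 fold change of the genes tested was -0.12, -2.2 and -1.2, beside -0.04, -0.11 and -0.07 over all genes. Setting Zeb2 in EpiLC at its bound left it the same by construction, since the bound lies on the same side of the median. The 3 comparisons share libraries and are not independent.

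**Figure D1:**
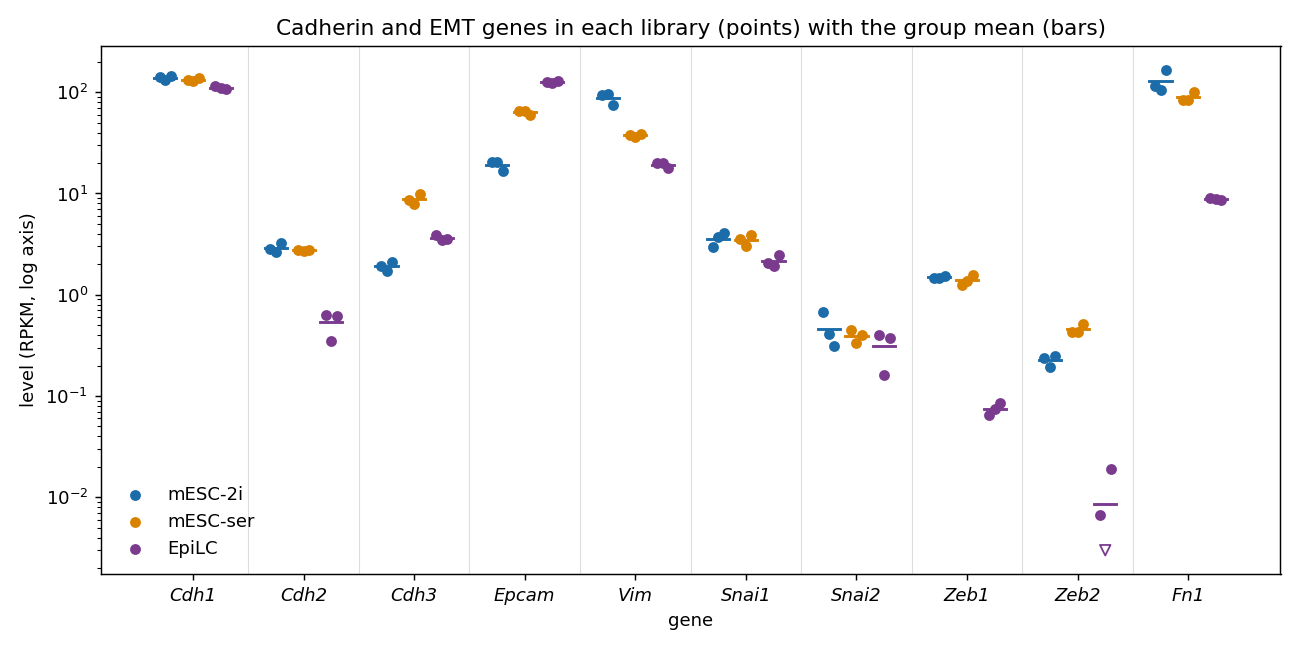
Level of each gene in RPKM (log axis) in the 9 libraries, with points for libraries, bars for group means and an open triangle for the EpiLC library with 0 counts of Zeb2. Cdh1 stays between 107 and 144 RPKM throughout, while Epcam climbs and Vim, Fn1, Zeb1 and Zeb2 are lowest in EpiLC.

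Per length, Cdh1 was the most abundant of the 10 in mESC-2i, at 139 ± 5.24 RPKM (SD, n = 3), with Fn1 at 128 ± 32.6, and the libraries of these genes overlapped. Vim followed at 88.0 ± 11.8 and Epcam at 19.3 ± 2.1. All others had at most 4.09 RPKM in any library, with Snai1 and Cdh2 overlapping. In mESC-ser the order at the top was Cdh1, Fn1, Epcam and Vim, with 134, 89.7, 63.9 and 37.6 RPKM and no overlap between neighbours. In EpiLC it was Epcam, Cdh1, Vim and Fn1, with 126, 111, 19.3 and 8.77 RPKM, again with no overlap. The lowest gene was Zeb2 in mESC-2i and EpiLC, while in mESC-ser Zeb2 and Snai2 overlapped, as did Cdh2 and Snai2 in EpiLC.

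Cdh1 (ENSMUSG00000000303, chromosome 8 from 106603351 to 106670246, forward strand, GRCm38) was not called in any comparison. It had 640, 609 and 657 CPM in the 3 mESC-2i libraries, 609, 596 and 628 in mESC-ser and 528, 500 and 490 for EpiLC. The EpiLC libraries were lower than all others, while mESC-2i and mESC-ser overlapped. The log2 fold change was -0.12 ± 0.1 (SE) for mESC-ser against mESC-2i (edgeR adjusted p = 0.311), -0.35 ± 0.09 for EpiLC against mESC-2i (edgeR adjusted p = 0.00486) and -0.19 ± 0.08 for EpiLC against mESC-ser (edgeR adjusted p = 0.0298). In the EpiLC comparisons the p passed and the fold did not. Scaling by total counts alone gave -0.69 and -0.53 in the EpiLC comparisons, where Cdh1 was then called lower. That scaling moved the median of all genes to -0.45 and -0.41, and the share of calls that were higher from 45.9% to 33.7% and from 48.4% to 37.4%.

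Cdh2 (ENSMUSG00000024304, chromosome 18, reverse strand), the cadherin gained in a switch, was a minor cadherin in every state. It had 22.8, 21.3 and 26.0 CPM in mESC-2i, 22.4, 22.1 and 22.4 in mESC-ser and 5.1, 2.82 and 5.03 for EpiLC, the last from 26 to 40 counts per library. All EpiLC libraries lay below all mESC libraries, and the mESC groups overlapped. Cdh2 fell 5.56-fold in EpiLC against mESC-2i (log2 fold change -2.48 ± 0.2, edgeR adjusted p = 1.22e-06) and 4.94-fold against mESC-ser (-2.31 ± 0.16, edgeR adjusted p = 1.06e-09). With length and GC offsets Cdh2 was called lower in both, at -2.02 ± 0.18 and -1.4 ± 0.16. Between mESC-ser and mESC-2i it differed by -0.13 ± 0.12 (edgeR adjusted p = 0.359), but by -0.57 ± 0.09 with length and GC offsets, where it was called lower (edgeR adjusted p = 0.000274).

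Cdh3 (P-cadherin, ENSMUSG00000061048) lies 46053 bases before Cdh1 on the same strand, from 106510891 to 106557297, and had a different course. It had 8.47, 7.59 and 9.28 CPM in mESC-2i, 38.0, 34.7 and 43.6 in mESC-ser and 17.0, 15.3 and 15.5 for EpiLC, so that the 3 groups were apart from each other. It was 4.41-fold higher in mESC-ser than in mESC-2i (log2 fold change 2.14 ± 0.14, edgeR adjusted p = 6.55e-07) and 1.86-fold higher in EpiLC than in mESC-2i (0.89 ± 0.14, edgeR adjusted p = 0.000161). EpiLC were below mESC-ser by -1.2 ± 0.11 on the log2 scale (edgeR adjusted p = 3.06e-08).

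Relative to Cdh1 in the same library, a measure that library scaling leaves unchanged, Cdh2 stood at 2.09% ± 0.142 (SD, n = 3) of the RPKM of Cdh1 in mESC-2i, 2.07% ± 0.0409 in mESC-ser and 0.483% ± 0.143 for EpiLC. The highest EpiLC library, at 0.582%, was below the lowest mESC library, at 1.99%. Cdh3 stood at 1.38% ± 0.0877, 6.61% ± 0.589 and 3.28% ± 0.0903 of Cdh1. Per length Cdh3 was thus below Cdh2 in mESC-2i and above it in mESC-ser and EpiLC, and in none of the 9 libraries did either exceed 7.24% of Cdh1.

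Epcam (ENSMUSG00000045394, chromosome 17 from 87635979 to 87651129, forward strand) codes for an adhesion molecule of epithelia and pluripotent cells. It had 45.1, 44.8 and 37.0 CPM in mESC-2i, 144, 145 and 132 in mESC-ser and 274, 272 and 282 for EpiLC. The groups did not overlap, and Epcam was the only gene of the set called higher in all 3 comparisons. It was 3.19-fold higher in mESC-ser than in mESC-2i (log2 fold change 1.67 ± 0.11, edgeR adjusted p = 7.52e-07) and 6.45-fold higher in EpiLC than in mESC-2i (2.69 ± 0.11, edgeR adjusted p = 8.59e-09). EpiLC exceeded mESC-ser 2.09-fold (1.06 ± 0.08, edgeR adjusted p = 1.44e-09), but with length and GC offsets the value was 0.46 ± 0.06, short of the fold threshold (edgeR adjusted p = 1.2e-05).

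Vim (ENSMUSG00000026728, chromosome 2 from 13573927 to 13582826, forward strand), the intermediate filament of mesenchymal cells, took the opposite course to Epcam. It had 442, 457 and 353 CPM in mESC-2i, 181, 171 and 183 in mESC-ser and 96.0, 93.8 and 85.3 for EpiLC. The groups did not overlap, and the lowest mESC-2i value was that of replicate 3. Vim was 2.43-fold lower in mESC-ser than in mESC-2i (log2 fold change -1.28 ± 0.12, edgeR adjusted p = 6.29e-06), 4.61-fold lower in EpiLC than in mESC-2i (-2.2 ± 0.12, edgeR adjusted p = 6.78e-08) and 1.83-fold lower in EpiLC than in mESC-ser (-0.87 ± 0.08, edgeR adjusted p = 2.78e-08). Per length, Vim stood at 456% ± 14.8 of Epcam in mESC-2i, 59.1% ± 4.79 in mESC-ser and 15.4% ± 1.21 for EpiLC, so that Vim exceeded Epcam in mESC-2i and lay below it in the other groups.

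**Figure D2:**
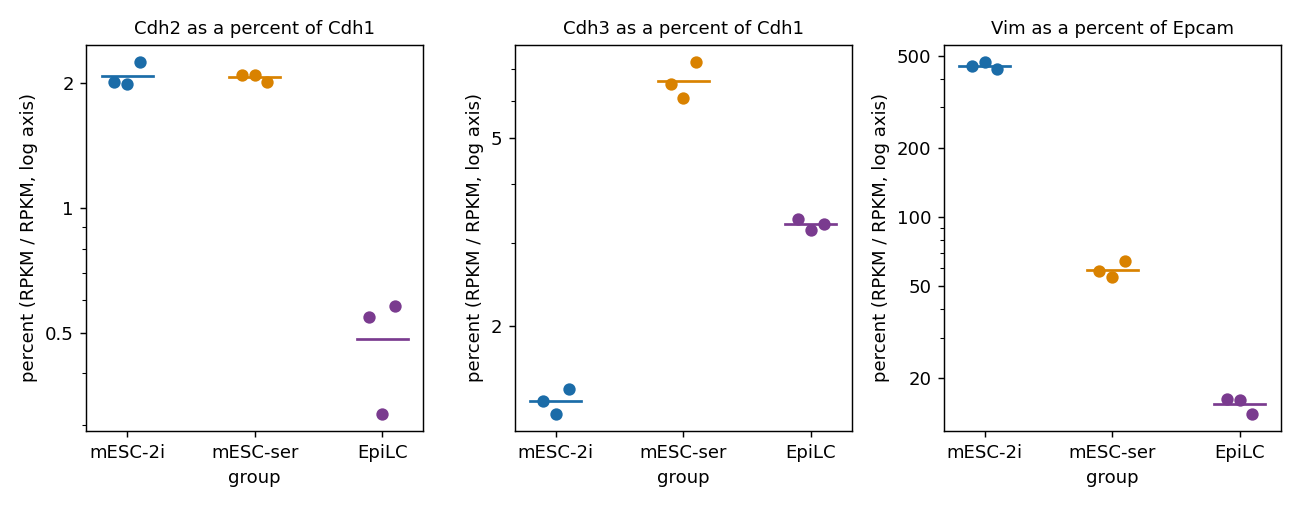
Ratios of RPKM within each library in percent (log axes), without length and GC offsets. Points stand for the 3 libraries of each group and bars for group means. Cdh2 drops from about 2.09% and 2.07% to 0.483% of Cdh1 in EpiLC, Cdh3 peaks at 6.61% of Cdh1 in mESC-ser, and Vim goes from 456% to 15.4% of Epcam.

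Fn1 (ENSMUSG00000026193, chromosome 1 from 71585520 to 71653200, reverse strand), which codes for the matrix protein fibronectin, had the most CPM of the set in all mESC libraries. It had 1337, 1227 and 1934 CPM in mESC-2i, 985, 975 and 1184 in mESC-ser and 105, 102 and 100 for EpiLC. EpiLC were far below both mESC groups, while the gap between these was narrow, since mESC-2i replicate 2 and mESC-ser replicate 3 lay close to each other. Fn1 fell 14.8-fold in EpiLC against mESC-2i (log2 fold change -3.89 ± 0.18, edgeR adjusted p = 2.11e-08) and 9.64-fold against mESC-ser (-3.27 ± 0.1, edgeR adjusted p = 4.63e-14). The lower level in mESC-ser than in mESC-2i (-0.58 ± 0.17, edgeR adjusted p = 0.0123) rested on single libraries in that fit. It was -0.35 without mESC-2i replicate 3, -0.5 without mESC-ser replicate 1 and -0.49 without mESC-ser replicate 2, and was not called in any of these. With length and GC offsets it was -0.85 ± 0.1 (edgeR adjusted p = 6.05e-05), and no library was left out of that second fit. In EpiLC the offsets gave -3.29 ± 0.11 against mESC-2i and -2.4 ± 0.07 against mESC-ser, called lower in both. Fn1 shares 292 exonic bases with Apol7d on the opposite strand, and the strand setting of the counting was not given in the sources used here.

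Snai1 (ENSMUSG00000042821, chromosome 2 from 167538195 to 167542814, forward strand), a repressor of Cdh1 at the onset of EMT, was low throughout. It had 4.79, 6.0 and 6.63 CPM in mESC-2i, 5.81, 4.92 and 6.26 in mESC-ser and 3.36, 3.15 and 4.02 for EpiLC, from 25 to 109 counts per library. EpiLC libraries lay below the rest, and Snai1 was 1.69-fold lower there than in mESC-2i (log2 fold change -0.76 ± 0.2, edgeR adjusted p = 0.00541) and 1.54-fold lower than in mESC-ser (-0.62 ± 0.19, edgeR adjusted p = 0.00599). With length and GC offsets these values were -1.37 and -1.48. Between the mESC groups the difference was -0.1 ± 0.18 (edgeR adjusted p = 0.637).

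Snai2 (ENSMUSG00000022676, chromosome 16 from 14705852 to 14709385, forward strand), the related repressor Slug, had only 3 to 14 counts in any library, or 0.325 to 1.35 CPM, and the 3 groups overlapped. It was tested between the mESC groups only, with a log2 fold change of -0.2 ± 0.36 (edgeR adjusted p = 0.661). That difference was within its error.

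Zeb1 (ENSMUSG00000024238, chromosome 18, forward strand), a zinc finger repressor of epithelial genes, had 15.2, 14.8 and 15.7 CPM in mESC-2i and 12.9, 14 and 16.0 in mESC-ser. In EpiLC it had 0.671, 0.759 and 0.879 CPM, from 5, 7 and 7 counts. EpiLC libraries were all far below the mESC libraries, which overlapped between groups. Zeb1 was 19.7-fold lower in EpiLC than in mESC-2i (log2 fold change -4.3 ± 0.2, edgeR adjusted p = 2.64e-08) and 17.3-fold lower than in mESC-ser (-4.11 ± 0.22, edgeR adjusted p = 2.99e-11). With length and GC offsets Zeb1 was called lower in both, at -3.75 ± 0.2 and -3.05 ± 0.22. Between the mESC groups it differed by -0.15 ± 0.13 (edgeR adjusted p = 0.34), and by -0.67 ± 0.11 with length and GC offsets, where it was called lower in mESC-ser (edgeR adjusted p = 0.000438). It shares 198 exonic bases with Gm10125 on the opposite strand.

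Zeb2 (ENSMUSG00000026872, chromosome 2 from 44983632 to 45117395, reverse strand), the paralogue of Zeb1, had 4.79, 3.84 and 4.91 CPM in mESC-2i and 8.54, 8.48 and 10.3 in mESC-ser. The EpiLC libraries held 1, 0 and 3 counts, which is at the floor of 3 counts per library used here. Against that floor in the shallowest EpiLC library, and without offsets, Zeb2 was at least 11.2-fold lower in EpiLC than in mESC-2i. Against mESC-ser it was at least 22.6-fold lower, and it was called lower in both (edgeR adjusted p = 7.19e-06 and 5.43e-10). These bounds cover counting error only. With length and GC offsets the log2 fold changes were -3.93 ± 0.5 and -4.16 ± 0.43, called lower in both. The second is a smaller fall than the bound of 22.6-fold. Zeb2 was 1.95-fold higher in mESC-ser than in mESC-2i (log2 fold change 0.96 ± 0.17, edgeR adjusted p = 0.00063). With length and GC offsets, however, that value was 0.21 ± 0.14 and Zeb2 was not called (edgeR adjusted p = 0.209). It shares 653 exonic bases with its antisense gene Zeb2os, so reads of the pair may not be told apart.

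**Figure D3:**
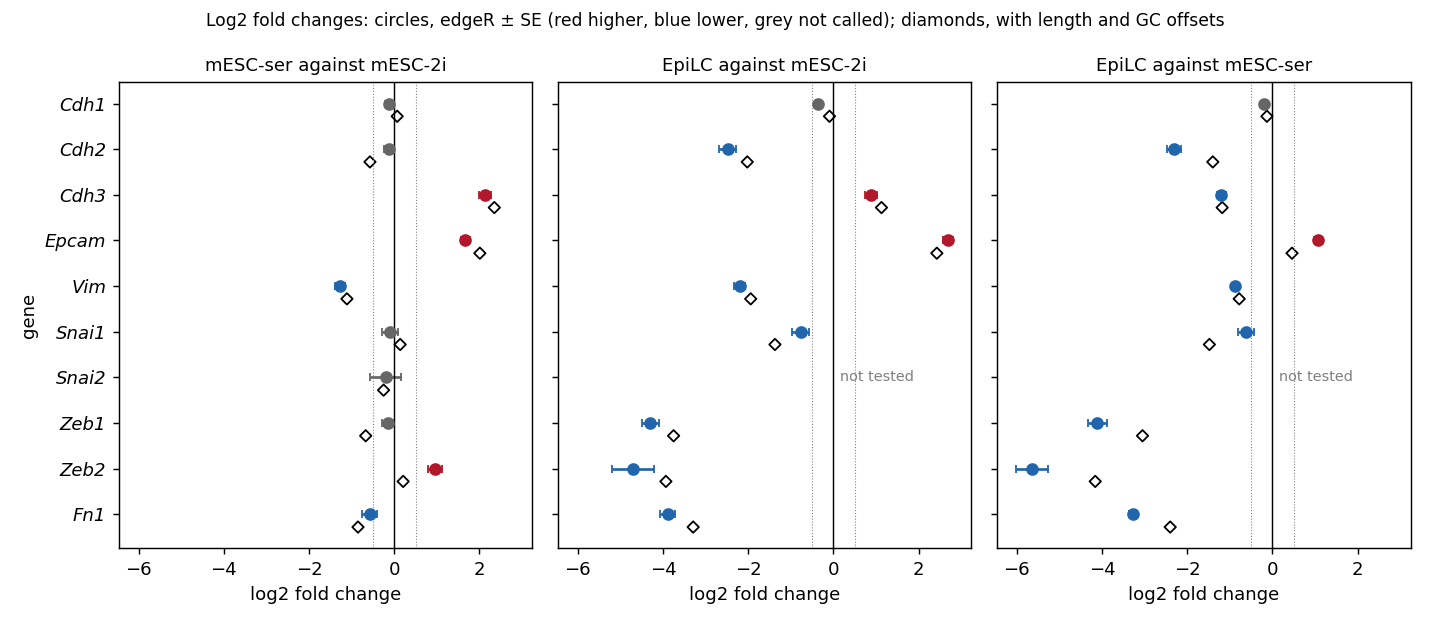
Log2 fold changes of the 10 genes in the 3 comparisons, as circles with bars of 1 SE (red called higher, blue called lower, grey not called), with diamonds for the fit with length and GC offsets and dotted lines at the fold threshold of 0.5. The falls of Cdh2, Vim, Zeb1, Zeb2 and Fn1 in EpiLC keep their call with the offsets, while Zeb2 between the mESC groups drops from 0.96 to 0.21.

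The genes whose log2 CPM followed that of a gene of the set most closely over the 9 libraries were searched among 10020 genes for Cdh1, Cdh2 and Vim. For Cdh1 they included Rnf216 and Tirap, with Pearson's r of 0.993 and 0.989. For Cdh2 they were Tert, Zc3hav1l and Ephb2, with 0.996, 0.995 and 0.994, and for Vim they were Tubb2a, Tdh and Lmbrd1, each with 0.996. With 3 groups of 3 libraries, these values mostly reflect the 3 group means. They do not reflect the size of a change. Rnf216 averaged 65.0, 54.7 and 18.5 CPM in mESC-2i, mESC-ser and EpiLC, where Cdh1 averaged 635, 611 and 506.

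Other genes of the same processes were read from 11 lists. Of the 50 genes that the naming rule picked from these and the marker lists, 11 share exonic bases with a gene on the opposite strand, and their counts may hold reads of both. Of 8 other classical cadherins 4 were tested in each comparison. Cdh11, a cadherin of mesenchymal cells, had 13.4, 11.1 and 9.51 CPM in mESC-2i, 2.8, 2.72 and 2.41 in mESC-ser and 0.268, 0.434 and 0.754 for EpiLC, and fell in all 3 comparisons. The list had 1 gene higher in each, with 2, 2 and 1 lower.

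Of 12 catenins and adherens junction partners tested, 7 were higher and 2 lower in mESC-ser relative to mESC-2i, with a median log2 fold change of 0.68, while in EpiLC 2 were higher and 7 lower against mESC-2i and 1 higher and 6 lower against mESC-ser. With length and GC offsets the counts were 6 and 2 in mESC-ser, with a median of 0.27, and 3 and 3 in EpiLC against mESC-2i. Jup (plakoglobin), which links cadherins of adherens junctions and desmosomes to the cytoskeleton, fell in EpiLC by 1.63 and 1.6 on the log2 scale. Afdn, an actin-binding junction protein, rose by 1.2 in mESC-ser. Ctnnd2, a catenin of the p120 family, was highest in mESC-2i, from 16.7 to 20.7 CPM. Of the direct partners of the E-cadherin tail, Ctnnb1 (β-catenin) and Ctnnd1 (p120-catenin) are named here after their values were seen. Ctnnb1 differed by -0.16 between the mESC groups, which was not called. It fell by 0.98 and 0.77 in EpiLC, where Cdh1 was not called, and shares 759 exonic bases with Ulk4 on the opposite strand. Ctnnd1 was 0.99 higher in mESC-ser than in mESC-2i, and 0.72 with the offsets, called in each fit. In EpiLC it was 0.67 lower than in mESC-2i, which was called, but 0.22 lower with the offsets, not called.

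Among desmosome genes, 3 of 6 tested were higher in mESC-ser and 0 lower, the others not reaching the threshold. In EpiLC against mESC-ser 4 of 6 were lower and 0 higher. Dsp (desmoplakin), which ties desmosomes to intermediate filaments, had 129, 122 and 153 CPM in mESC-ser, 48.1, 41.9 and 53.1 in mESC-2i and 2.95, 2.39 and 2.64 in EpiLC. Dsg2 and Dsc2, the desmosomal cadherins, were lower in EpiLC than in mESC-2i by 2.1 and 1.8 on the log2 scale. Against mESC-2i, 1 of 6 was higher in EpiLC and 3 were lower.

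Tight junction genes were split. Of 12 tested, 5 were higher and 3 lower in mESC-ser relative to mESC-2i, and 6 higher and 3 lower in each EpiLC comparison. These were 66.7%, 75.0% and 75.0% of the list, beside 56.2%, 69.8% and 73.3% of all genes. The claudin Cldn6 had 3.19, 5.75 and 3.9 CPM in mESC-2i, 47.8, 46.3 and 56.0 in mESC-ser and 286, 286 and 308 for EpiLC, a course like that of Epcam. Cldn7 rose 3.2 on the log2 scale in EpiLC against mESC-2i. Cgn (cingulin), which sits on the inner face of tight junctions, was highest in mESC-ser, from 69.9 to 85.2 CPM.

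Epithelial regulators had 5 of 9 tested higher and 2 lower in mESC-ser relative to mESC-2i, 3 higher and 4 lower of 8 in EpiLC against mESC-2i, and 1 higher and 5 lower of 9 against mESC-ser. With length and GC offsets the last counts were 3 and 4. Esrp1, a splicing factor of epithelial cells, had 1.11, 0.75 and 0.624 CPM in mESC-2i, 64.5, 65.3 and 75.2 in mESC-ser and 87.6, 83.2 and 85.4 for EpiLC. Klf5 and Grhl3, by contrast, fell in EpiLC against mESC-2i, by 5.2 and 4.8 on the log2 scale.

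EPCAM partners had 2 of 7 tested higher and 3 lower in mESC-ser relative to mESC-2i, 1 higher and 2 lower of 6 in EpiLC against mESC-2i and 2 higher and 4 lower of 7 against mESC-ser. Spint2, a protease inhibitor, was 1.49 higher on the log2 scale in EpiLC than in mESC-2i. Cd9, a tetraspanin, and Adam10, a sheddase of membrane proteins, were lower by 3.04 and 2.54, opposite to Epcam.

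Of 11 other EMT transcription factors, 9 were tested in mESC-ser relative to mESC-2i, with 1 higher and 5 lower. In EpiLC against mESC-2i, 1 of 9 was higher and 6 lower, and against mESC-ser 1 of 5 was higher and 2 lower. Gsc (goosecoid), a gene of the primitive streak, was detected mainly in mESC-2i, with 9.33, 11.8 and 6.94 CPM against at most 0.651 in any other library. Tcf4 and Tcf12, E-proteins that bind E-boxes, fell by 2.01 and 1.46 in EpiLC against mESC-2i. With offsets for length and GC content, the counts in EpiLC against mESC-ser were 1 higher and 0 lower: Tcf4 went from -1.8 to -0.17, not called, and Tcf12 turned from -0.89 to 0.54, called in each fit.

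TGF-beta signalling, a main inducer of EMT, was read from ligands, receptors, SMADs and the SMAD repressors Ski and Skil. Of 11 genes tested, 4 were higher and 3 lower in mESC-ser relative to mESC-2i. The 4 higher included Skil, by 2.87 on the log2 scale, and Ski, by 0.89. In EpiLC 2 were higher, Skil among them, and 7 lower against mESC-2i. Against mESC-ser 1 was higher and 9 lower, changing to 1 and 6 with the offsets. The receptor Tgfbr2 had 22.0, 23.7 and 25.6 CPM in mESC-2i, 3.36, 4.33 and 4.02 in mESC-ser and 0.671, 0.325 and 0.879 for EpiLC. The ligand Tgfb2 was at the floor in EpiLC, at least 14.1-fold lower than in mESC-2i. Skil, a repressor of SMAD signalling, had 209 to 223 CPM in mESC-ser, 23.0 to 33.2 in mESC-2i and 87.8 to 117 for EpiLC, but with the offsets its log2 fold change in EpiLC against mESC-ser turned from -0.97, called lower, to 0.27, not called.

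Mesenchymal markers beyond Vim and Fn1 took several courses. Of 13 tested, 7 were higher and 1 lower in mESC-ser relative to mESC-2i, and 2 were higher and 11 lower in EpiLC against mESC-ser. Against mESC-2i, 4 of 12 were higher and 7 lower in EpiLC. Tagln (transgelin), an actin-binding protein of smooth muscle, had 0.614, 2.0 and 0.936 CPM in mESC-2i, 101, 101 and 71.8 in mESC-ser and 13.0, 12.9 and 11.6 for EpiLC. Cnn1 (calponin) was highest in EpiLC, from 14.4 to 16.9 CPM. Col3a1 followed Cdh11, with 10.4 to 13.6 CPM in mESC-2i and 0 to 0.542 in EpiLC.

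The integrin genes for fibronectin receptors had 5 of 6 tested higher in mESC-ser than in mESC-2i and 6 of 6 lower in EpiLC than in mESC-ser, with a median of -1.88. Against mESC-2i, 2 of 5 were lower in EpiLC and 0 higher. Itgav fell with Fn1 in EpiLC, by 2.63 on the log2 scale against mESC-2i. Itga5, the α5 chain of the main fibronectin receptor, differed by -0.05 there, which was not called, and Itgb1 by -0.35, also not called.

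The other intermediate filaments had 4 of 7 tested higher in mESC-ser relative to mESC-2i, 2 higher and 2 lower in EpiLC against mESC-2i and 1 higher and 5 lower against mESC-ser. The epithelial keratin Krt18 had 9.46, 13.1 and 10.7 CPM in mESC-2i, 99.5, 92.3 and 96.1 in mESC-ser and 55.4, 56.8 and 61.1 for EpiLC. Its partner Krt8 was lowest in EpiLC, from 13.1 to 16.0 CPM, and Krt19 highest in mESC-ser, from 20.4 to 23.5.

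**Figure D4:**
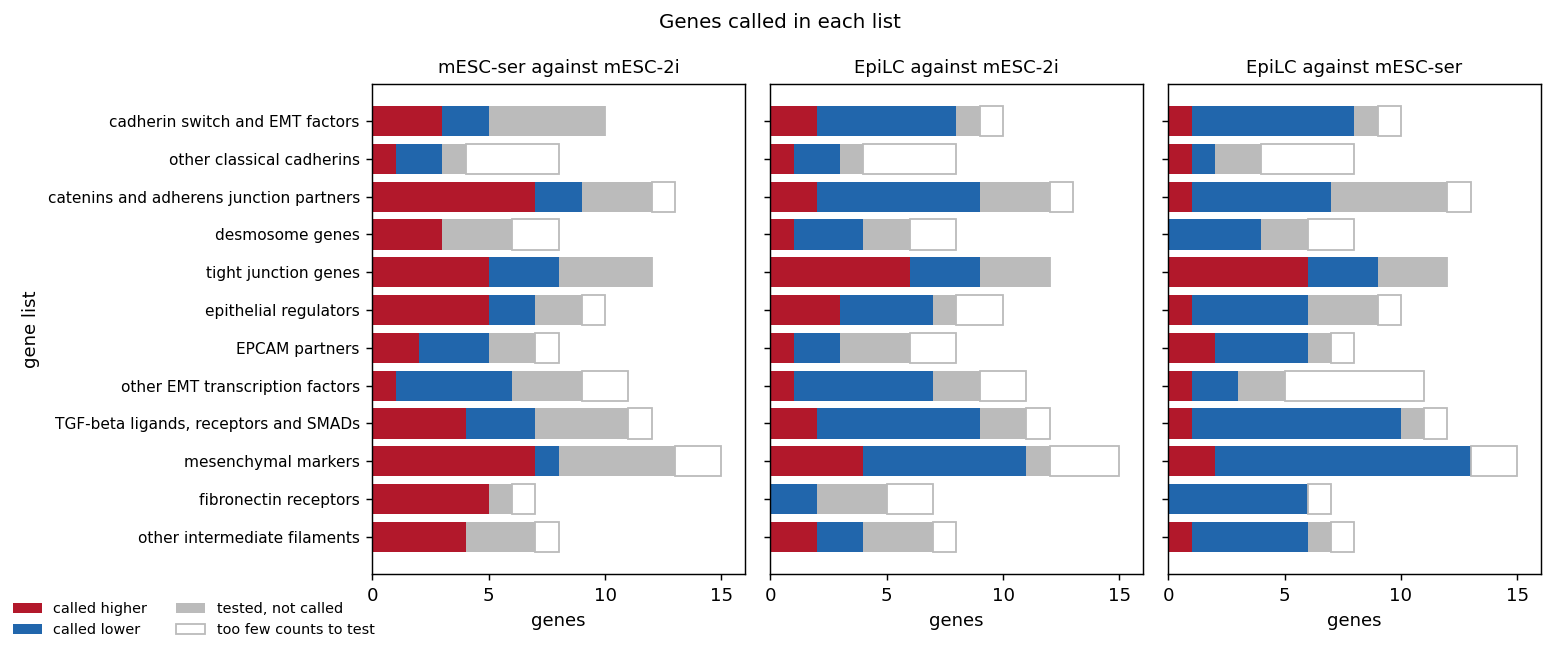
Genes called higher (red), called lower (blue), tested but not called (grey) and with too few counts to test (open) in each list, by comparison, with the number of genes on the horizontal axis. Of the mesenchymal markers 7 are red in mESC-ser relative to mESC-2i and 11 blue in EpiLC against mESC-ser, of the fibronectin receptors 5 are red and 6 blue, and tight junction genes have 6 higher and 3 lower in both EpiLC comparisons.

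Markers of other cell types and states were read beside the set. The summed level of 7 fibroblast or feeder genes averaged 47.5 CPM in mESC-2i, 66.2 in mESC-ser and 42.7 for EpiLC. Of these, Lum was at 0 in all EpiLC libraries, and 1, 2 and 2 of the 7 genes were at or under the floor. Col1a1 was lower in EpiLC, as Fn1 was, while Thy1 was higher. Primitive endoderm genes, 7 in all, averaged 22.9, 34.1 and 9.47 CPM summed, with Dab2 lowest in EpiLC, and 6 primitive streak and mesoderm genes averaged 118, 22.6 and 13.7, mostly from T in mESC-2i, at 77.4 to 98.3 CPM. Trophectoderm genes, 5 in all, averaged 82.4, 47.3 and 1.57 CPM, and 5 neural genes 164, 141 and 96.3. Most of the trophectoderm sum came from Tfap2c in mESC-2i and mESC-ser, at 65.5 and 34.9 CPM. Most of the neural sum came from Tubb3 there, at 132 and 99.9 CPM, and from Sox3 in EpiLC, at 60.0. Both sums cover opposite changes. In mESC-ser against mESC-2i, 2 of 4 trophectoderm genes tested were higher and 2 lower, and 2 of 5 neural genes were higher and 2 lower. In EpiLC against mESC-2i, 1 of 4 neural genes tested was higher and 3 lower. The 5 general pluripotency genes averaged 2205, 2428 and 2223, a sum of opposite changes: in EpiLC against mESC-2i, Nanog fell by 3.43 and Sox2 by 2.94 on the log2 scale, and Utf1 rose by 5.0. The part of these cells or states in the levels of Vim, Fn1, Zeb1 and Zeb2 was not tested.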

How the data were processed

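Poly-A RNA of E14 cells was sequenced as single-end reads in 9 libraries. Per the labels and the methods, the authors trimmed reads (Trim Galore 0.6.6), aligned them to mm10 (HISAT2 2.2.1) and counted them per gene (Subread 2.0.1), and they deposited raw counts with no normalization. The annotation release and strand setting were not given in the sources used here. All 9 columns were matched to samples by name.

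The 6 libraries of each comparison were fitted with edgeR 4.0.16 (R 4.3.3, limma 3.58.1) after filterByExpr and TMM scaling. CPM and RPKM were scaled over all 9 libraries, so their ratios differ slightly from fitted fold changes. Symbols, positions and exonic lengths came from GENCODE M21, which matched 36429 of 38293 gene identifiers (95.1%). The SE is the log2 fold change divided by the root of F. The fit was tested on simulated data, for the comparisons against mESC-2i only. There few genes were changed, evenly up and down, and no length or GC trend was put in. In the real data most genes were called and fold changes followed length, so the simulation does not cover these conditions.

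The 10 genes and the 19 other lists were chosen with earlier results of these data known. From each list up to 3 genes were named: the called genes with the largest fold changes, at least 100 counts on average in the higher group and no overlap between groups. For Cdh1, Cdh2 and Vim the 3 genes with the highest correlation were named, among genes with at least 10 CPM. 1 of those for Cdh1 is not reported here. A fold against a group whose libraries all held at most 3 counts is a bound. It was set against 3 counts in the shallowest library of that group, a choice made after the values were seen. Averaging the floor over the libraries instead gave 12.2 and 24.7 for Zeb2. Floors cover counting error only.

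The replicate number was checked as a pairing. Correlations of same-numbered deviations were 0.129, 0.181 and 0.345 between mESC-ser and mESC-2i. Those of differently numbered libraries ran from -0.278 to 0.146, the last above the 0.129 of replicate 1 with replicate 1. The labels name no shared batch, so a pairing was not established, and the reported p-values come from fits without it. Same-numbered correlations were 0.0202 to 0.112 for EpiLC with mESC-2i and 0.016 to 0.0332 for EpiLC with mESC-ser, taken as not paired. Alternatives covered scaling, filters, DESeq2 1.42.0, a fit of all libraries, the replicate block, length and GC offsets (natural splines with 5 degrees of freedom), thresholds and leaving out each library.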

Additional observations from a re-analysis of the deposited data

How the results depend on the processing

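Of 527 values of the 10 genes under the alternatives, 499 kept their direction and their side of the threshold. A call was lost by 13 and gained by 8, and 7 turned in sign, all 7 in members of the set not called between the mESC groups. The alternative thresholds reuse the fold changes of the main fit, so there the direction was fixed and only the call could change. With length and GC offsets, mESC-ser against mESC-2i gave 0.07 for Cdh1 and 0.14 for Snai1, and the same with the replicate block added. Leaving out single libraries gave -0.43 to 0.1 for Snai2 and -0.2 to 0.02 for Snai1, with 0.01 among these for Snai1. An absolute log2 fold change over 1 left 4935 genes called and 3 of the 10 genes there, by construction. The log2 ratio of Cdh2 to Cdh1 was -5.59 in mESC-2i and mESC-ser and -7.74 in EpiLC per length, -4.77, -4.78 and -6.92 without division by length, and -5.45 and -6.09 in mESC-2i and mESC-ser with the offsets. The EpiLC ratio with the offsets is not reported here. The replicate block by itself called 8953 genes against 8843 between the mESC groups and changed no call of the 10 genes. The shift without division follows from the exonic lengths of 8066 and 4574 bases by construction, and the cause of the shift with the offsets was not tested. Counts were few for Snai2, at most 14 in a library, and in EpiLC for Zeb1, at most 7, and Zeb2, at most 3.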
